A study of Mus musculus with 7 samples.

Results

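The 4 libraries described here are replicates 2 and 3 of the WT group and replicates 1 and 4 of the Tet2 CKO group, out of 7 libraries of 5-hydroxymethylcytosine (5hmC) enriched genomic DNA from mouse hippocampus. They were chosen by their similar sequencing depth, a measured value, after an earlier look at these counts in which they were described as concordant, so their closeness to each other is a description and not a finding. Their totals ran from 26134505 to 29604828 reads, and the next library by depth, Tet2 CKO replicate 2, held 39224160. WT mice carried intact Tet2, and Tet2 CKO mice a conditional knockout of Tet2, both on the C57BL/6 strain and both unstressed. The labels used here give neither the Cre driver of the knockout, nor the cells it acts in, nor the age of the mice, nor whether a library came from 1 animal or from several. The series as a whole holds 3 WT and 4 Tet2 CKO libraries and asks how 5hmC in the hippocampus differs without Tet2.

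TET dioxygenases oxidise 5-methylcytosine to 5hmC, an intermediate of active DNA demethylation that is also a lasting mark in neurons. Brain tissue is rich in 5hmC, most of it in the bodies of transcribed genes and in distal regulatory DNA. Tet2 encodes the family member that lacks the CXXC DNA-binding domain and depends on partner proteins to reach chromatin, and Tet1 and Tet3 encode the other family members. Hippocampus holds neurons and glia, so that a change of 5hmC within cells and a change in the mix of cells cannot be told apart in such tissue. Antibody enrichment gives the share of captured DNA that each region takes, so that an equal change over the whole genome would not show in these counts.

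No 10 kb window was called as different between genotypes in these 4 libraries. Of 238720 autosomal windows tested, edgeR called 0 (0.0%) at a Benjamini-Hochberg adjusted p under 0.05, and DESeq2 also called 0 (0.0%). The lowest adjusted p was 0.791 in edgeR and 0.283 in DESeq2. At an unadjusted p under 0.05, edgeR had 11072 windows (4.64%), of which 5688 (2.38%) were higher in Tet2 CKO and 5384 (2.26%) were lower, and DESeq2 had 10170 (4.26%). The median log2 fold change of Tet2 CKO over WT was 0.0020. Both Tet2 CKO libraries lay above both WT libraries in 39720 windows (16.6%), and both lay below in 39753 windows (16.7%). Higher and lower windows were thus close to equal in number on each of these counts. Scaling the libraries to each other sets most differences near 0, so the median and this balance are in part given by the scaling. A random order of 2 against 2 libraries in each window would also give shares without overlap of about this size. How far the choice of libraries bears on these counts was not tested.

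**Figure D1:**
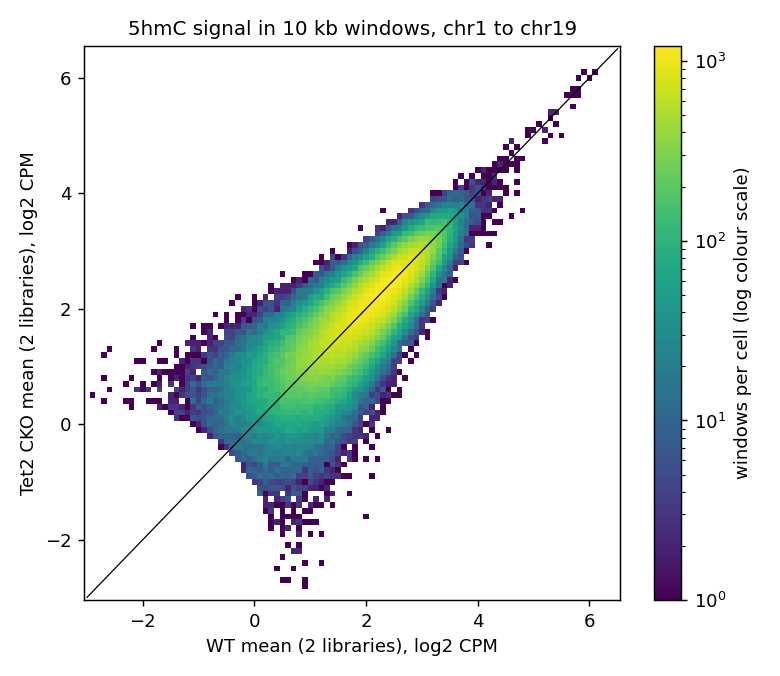
Each cell counts 10 kb windows by the mean 5hmC signal of the 2 WT libraries (x axis, log2 CPM) and of the 2 Tet2 CKO libraries (y axis, log2 CPM), on a log colour scale, with the line of equal signal in black. The 238720 tested windows spread to both sides of the line, more widely at low signal, and 4 windows below -3 on either axis are not drawn.

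Outside the bins left out for their very high counts, the 5hmC landscape of the 4 libraries was broad and shallow. The left-out bins held 50.3% to 55.0% of the autosomal reads of these libraries and are not part of this description. Signal is given as CPM, the reads of a window scaled to the kept autosomal reads of its library and to TMM factors between 0.994 and 1.01. Over the tested windows the mean of the 4 libraries had a median of 3.82 CPM per 10 kb, a 1st percentile of 1.04 CPM and a 99th percentile of 10.3 CPM. The 95th percentile was 8.82 CPM in WT replicate 2, 8.26 CPM in WT replicate 3, 8.83 CPM in Tet2 CKO replicate 1 and 8.43 CPM in its replicate 4. At this level the genotypes overlapped, with 1 library of each near 8.8 CPM. The level of a window resembled that of its neighbour, with a Pearson r of 0.498 across 237889 pairs of adjacent windows, 0.390 at a distance of 100 kb and 0.221 at 1000 kb. For the genotype difference the same r was 0.015 between adjacent windows, 0.0048 at 100 kb and 0.0015 at 1000 kb. Windows share libraries and depth, so these correlations are descriptions.

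Megabase regions kept their places from library to library. Among 2148 complete autosomal 1 Mb windows with reads in at least 80% of their bins, the highest by the mean of the 4 libraries was at chromosome 8, 122000001 to 123000000. It had 833 CPM in WT replicate 2, 773 CPM in WT replicate 3, 882 CPM in Tet2 CKO replicate 1 and 807 CPM in its replicate 4, where it ranked 6, 4, 2 and 1. The next was at chromosome 4, 141000001 to 142000000, with 862, 774, 847 and 782 CPM in the same order. Lowest of all was chromosome 12, 19000001 to 20000000, with 204, 221, 196 and 224 CPM, which ranked 2148 in each of the 4 libraries. Of the 100 highest 1 Mb windows of each library, 79 were shared by all 4. In the highest window the log2 fold change was 0.073 with a 95% interval from -0.12 to 0.27, and in the lowest it was -0.016 with an interval from -0.20 to 0.17, so neither was apart from 0. These regions were picked after their values were seen, by their level and not by their difference.

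The richest 10 kb windows lay close together near the start of chromosome 11, where the kept bins border bins left out for their very high counts. For the richest, 3060001 to 3070000, the count was 810 and 990 reads in the WT libraries, replicates 2 and 3 in that order, and 742 and 1083 in Tet2 CKO replicates 1 and 4. That is 67.4 ± 0.930 CPM for WT against 68.5 ± 12.6 CPM for the knockout (SD, n = 2 each). Reads stood in all 16 of its kept bins in each library. In the window from 3030001 to 3040000, WT signal was 60.5 ± 7.01 CPM and knockout signal 67.5 ± 5.87 CPM, and in that from 3040001 to 3050000 they were 62.6 ± 5.02 and 64.1 ± 1.29 CPM (SD, n = 2 each). For the other 2 of the richest 5, at 3080001 and 3050001, mean WT signal was 57.3 and 57.6 CPM and mean Tet2 CKO signal 64.5 and 54.6 CPM. All 5 had 95% intervals of the log2 fold change that held 0, the widest from -0.39 to 0.23, and the genotypes overlapped in each.

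The 5 windows with the smallest unadjusted p that were lower in Tet2 CKO had fold changes from 2.11 to 11.3. In the first, chromosome 17, 62700001 to 62710000, the WT libraries held 39 and 66 reads and Tet2 CKO replicates 1 and 4 held 2 and 7. WT reads stood in 10 and 12 of its 20 bins and Tet2 CKO reads in 1 and 2 bins. Its log2 fold change was -3.49 (SE 0.71, 11.3-fold lower), with a 95% interval from -4.91 to -2.08. In the second, chromosome 2, 171990001 to 172000000, WT held 86 and 54 reads and Tet2 CKO 12 and 12, a log2 fold change of -2.55 (SE 0.53). On the same chromosome, in 23430001 to 23440000, WT held 56 and 56 reads and Tet2 CKO 6 and 8, a log2 fold change of -2.98 (SE 0.63). In all 3 both WT libraries were above both Tet2 CKO libraries.

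The window at chromosome 5, 144010001 to 144020000, was different in kind, because it was rich in every library. WT libraries held 411 and 323 of its reads and Tet2 CKO libraries 163 and 189, or 28.1 ± 8.25 CPM against 13.3 ± 0.305 CPM (SD, n = 2 each). By mean signal it stood at the 99.98th percentile of all tested windows, and its log2 fold change was -1.08 (SE 0.23). Taking the highest bin of each library on its own, it held 90 and 87 reads in WT replicates 2 and 3, 20 reads in Tet2 CKO replicate 1 and 44 in its replicate 4. For the last of the 5, at chromosome 6, 9980001 to 9990000, WT held 55 and 68 reads and Tet2 CKO 4 and 14 (log2 fold change -2.76, SE 0.59).

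The 5 windows with the smallest p that were higher in Tet2 CKO changed by 2.56- to 5.75-fold. At chromosome 14, 122020001 to 122030000, WT replicates 2 and 3 had 41 and 57 reads and Tet2 CKO replicates 1 and 4 had 140 and 139. This gave 3.65 ± 0.382 CPM for WT against 10.6 ± 0.917 CPM for the knockout (SD, n = 2 each), a log2 fold change of 1.53 (SE 0.33) with a 95% interval from 0.87 to 2.19. At chromosome 18, 44410001 to 44420000, the reads were 13 and 26 in WT and 76 and 87 in Tet2 CKO, a log2 fold change of 2.09 (SE 0.47). These 2 windows differ in how the reads lie, with Tet2 CKO reads in 16 and 18 of 20 bins in the first and in 11 and 11 bins in the second. At chromosome 3, 89550001 to 89560000, WT held 64 and 68 reads against 165 and 171 for the knockout (log2 fold change 1.35, SE 0.30). At chromosome 18, 51570001 to 51580000, WT held 12 and 9 reads against 60 and 62 for the knockout (log2 fold change 2.52, SE 0.57). At chromosome 6, 114080001 to 114090000, WT held 39 and 28 reads against 113 and 95 for the knockout (log2 fold change 1.63, SE 0.39).

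None of these 10 windows passed the threshold, with adjusted p between 0.791 and 1.0 (edgeR, quasi-likelihood test, Benjamini-Hochberg). They were picked as the extremes of 238720 windows, so their gaps between genotypes are a description of how they were picked. Each kept its direction in all 15 alternative fits. These fits reuse the same counts, and the genotypes did not overlap in any of the 10 windows. The direction was thus in effect fixed by how the windows were picked. The windows on chromosomes 17 and 6 at 62700001 and 9980001 passed in 1 of those fits, without Tet2 CKO replicate 4 (edgeR, adjusted p = 0.0453 for each), where their log2 fold changes were -4.52 and -3.80.

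**Figure D2:**
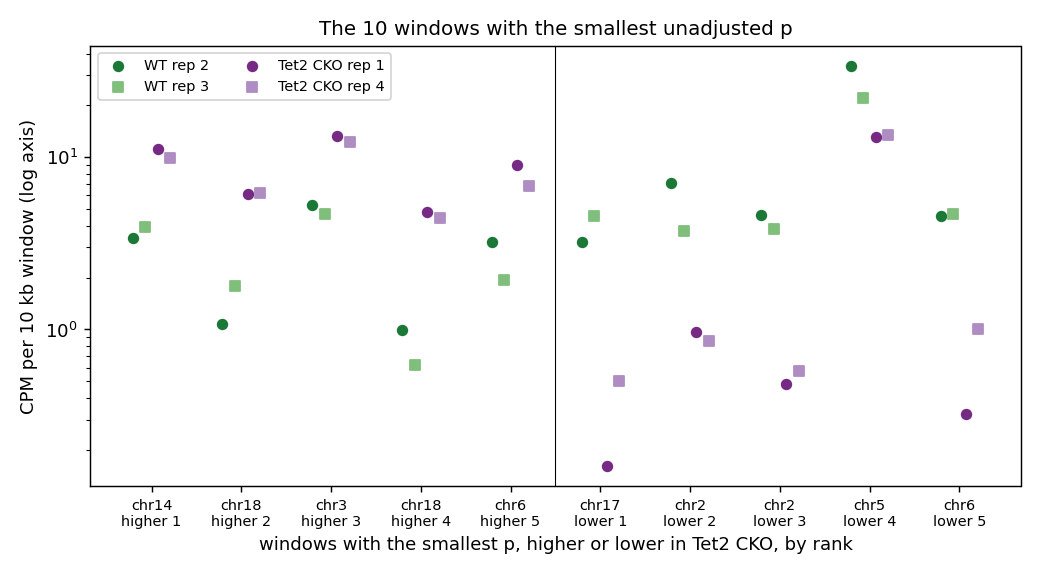
Points give the CPM (log axis) of each library in the 5 windows with the smallest unadjusted p higher in Tet2 CKO (left) and the 5 lower (right), labelled by chromosome and rank. WT and Tet2 CKO libraries do not overlap in any of the 10, from 0.160 CPM in Tet2 CKO replicate 1 in the lowest window to 33.9 CPM in WT replicate 2 in the richest.

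Windows at an unadjusted p under 0.05 made up 2.38% (higher) and 2.26% (lower) of those tested, and most stood alone. At such low shares most would stand alone by their number, so the counts of pairs and runs are a description. At an unadjusted p under 0.05, 5391 of the higher windows stood alone, 141 pairs of adjacent windows were higher together, and 5 runs reached 3 windows. Of the lower windows 5122 stood alone, with 122 pairs and 6 runs of 3, and no run in either direction was longer than 3. Leading the higher runs, chromosome 18, 65790001 to 65820000, held 242 and 348 WT reads and 518 and 453 Tet2 CKO reads, a mean log2 fold change of 0.75. The next, chromosome 15, 61930001 to 61960000, held 178 and 211 WT reads and 335 and 400 Tet2 CKO reads. The third, chromosome 14, 31960001 to 31990000, held 290 and 285 WT reads and 484 and 462 Tet2 CKO reads. In all 3 runs both Tet2 CKO libraries were above both WT libraries, which in large part follows from how the runs were picked. Leading the lower runs, chromosome 5, 68780001 to 68810000, held 184 and 207 WT reads and 80 and 92 Tet2 CKO reads, a mean log2 fold change of -1.42. A lower run also on chromosome 5, at 120960001 to 120990000, held 490 and 448 WT reads and 276 and 290 Tet2 CKO reads. The remaining lower run among the first 3, at chromosome 10, 20670001 to 20700000, held 282 and 1409 WT reads and 544 and 351 Tet2 CKO reads. There the genotypes overlapped, with WT replicate 3 highest and Tet2 CKO replicate 1 next, which is taken up further on.

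Wider windows hold more reads, and the genotype difference narrowed with them. The SD of the log2 fold change across windows was 0.49 in 10 kb windows, 0.14 in 100 kb windows and 0.053 in 1 Mb windows. The median SE of a single window was 0.44, 0.14 and 0.054 in the same order, so the spread of the differences was about as large as the error of a single one at each size. In 1 Mb windows the log2 fold change ran from -0.21 to 0.17 over 2417 windows, edgeR called 0 (0.0%) and 91 (3.76%) had an unadjusted p under 0.05. The 95% interval of the log2 fold change lay wholly within 0.25 to either side of 0 in 96.2% of the 1 Mb windows, and within 0.5 in 99.9% of them. In 100 kb windows it lay within 0.5 in 83.5% and within 1, a 2-fold change, in 99.95% of 24016 windows. In 10 kb windows 28.3% had intervals within 1, and the median interval reached 0.88 to either side of its estimate. These bounds hold for differences relative to the rest of the autosomes. At 100 kb and 1 Mb they also rest on an error pooled over windows, not on the library spread of each window.

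**Figure D3:**
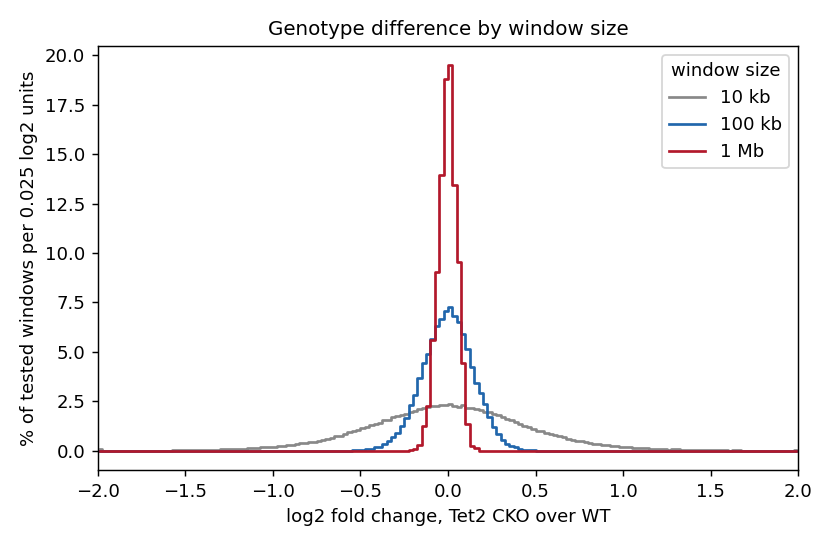
Lines give the share of tested windows (y axis, %) by log2 fold change of Tet2 CKO over WT (x axis) for windows of 10 kb, 100 kb and 1 Mb. All 3 distributions centre near 0 and narrow from an SD of 0.49 to 0.14 and 0.053, and the 314 windows of 10 kb beyond 2 on either side are drawn at the ends of the axis.

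Libraries of different genotype were as alike as libraries of the same genotype. In 10 kb windows the Pearson r of log2(CPM + 0.1) was 0.698 between the WT libraries and 0.674 between the Tet2 CKO libraries, and the 4 pairs of unlike genotype had r between 0.675 and 0.695. In 100 kb windows the like pairs had 0.927 and 0.926 and the unlike pairs between 0.924 and 0.929. In 1 Mb windows these were 0.987 and 0.988 against 0.987 and 0.989. In 10 kb windows the unlike pairs lay inside the range of the like pairs, and at the wider sizes they lay on both sides of it or close to it. In single 500 bp bins r was between 0.361 and 0.385 for all 6 pairs. The points are windows of the same libraries, which were described as concordant when they were chosen.

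Chromosomes held the same order in all 4 libraries at the top and nearly so below. Density was measured as reads per kept 500 bp bin with a read in any of the 4 libraries, relative to all autosomes. Chromosome 11 was the densest, with 1.12 in WT replicate 2, 1.10 in WT replicate 3, 1.12 in Tet2 CKO replicate 1 and 1.11 in its replicate 4. Chromosome 3, which carries Tet2, was the thinnest in each library, with 0.911, 0.928, 0.911 and 0.923 in the same order. The largest differences upward in Tet2 CKO were 0.0093 on chromosome 11, 0.0076 on chromosome 19 and 0.0072 on chromosome 18. Downward they were -0.0057 on chromosome 17, -0.0053 on chromosome 15 and -0.0040 on chromosome 1. No chromosome thus differed by as much as 1% of its density. Groups did not overlap on 3 autosomes that were higher in Tet2 CKO (15.8% of 19), which were chromosomes 8, 16 and 19, and on 1 that was lower (5.26%), chromosome 15. Chromosome 15 had 1.03 ± 0.00236 in WT and 1.02 ± 0.00495 in Tet2 CKO (SD, n = 2 each; exact permutation test, two-sided, p = 0.333 and adjusted p = 1.0 over 19 autosomes). With 2 libraries against 2 the exact permutation test cannot go below p = 0.333.

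**Figure D4:**
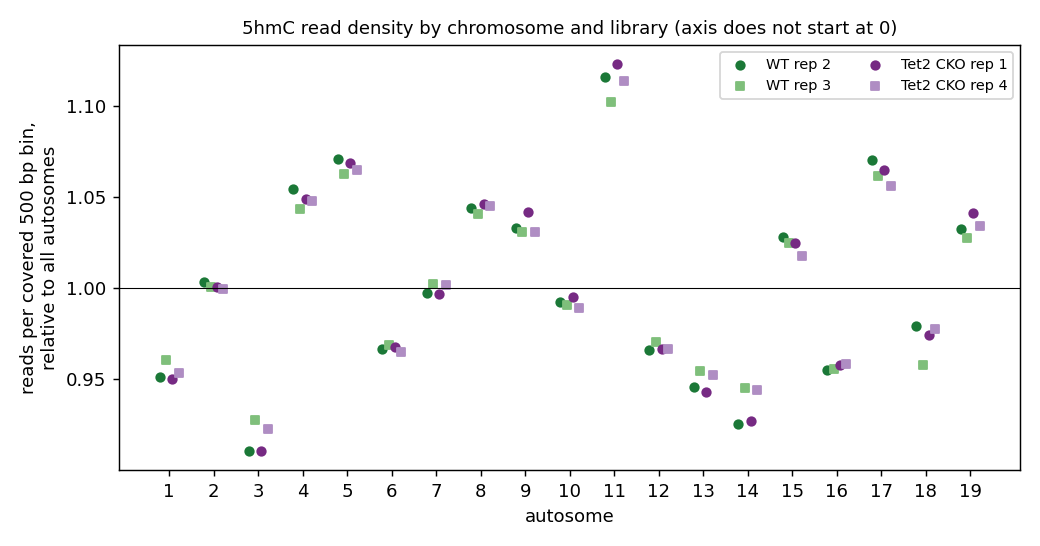
Points give each library's reads per covered 500 bp bin relative to all autosomes (y axis, which does not start at 0) for chromosomes 1 to 19. The 4 libraries sit close together on each chromosome, from 0.911 on chromosome 3 to 1.12 on chromosome 11.

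How steeply signal was concentrated varied within each genotype by more than between genotypes once the bins of very high count were left out. The richest 5% of tested windows, 11936 windows ranked by the mean of the 4 libraries, held 11.7% of the kept reads in WT replicate 2, 10.98% in WT replicate 3, 11.8% in the first Tet2 CKO library, replicate 1, and 11.2% in replicate 4. WT replicate 2 and Tet2 CKO replicate 1 were the higher pair, 1 of each genotype. WT libraries averaged 11.3% ± 0.498 and knockout libraries 11.5% ± 0.377 (SD, n = 2 each; exact permutation test, two-sided, p = 0.667), a difference of 0.182 percentage points that turned to -0.175 without WT replicate 3 and to -0.090 without Tet2 CKO replicate 1. It was 0.573 without WT replicate 2 and 0.448 without Tet2 CKO replicate 4. With no bins left out the share was 60.3% and 55.8% in WT libraries and 56.9% and 56.5% in knockout libraries, a difference of -1.32 percentage points, with the knockout libraries inside the WT range. With windows split into 10 equal strata by mean signal, the median of the richest stratum was 8.49 and 7.91 CPM in WT libraries and 8.58 and 8.15 CPM in knockout libraries. In the poorest it was 1.32 and 1.44 CPM against 1.28 and 1.501 CPM. WT replicate 2 and Tet2 CKO replicate 1 were above WT replicate 3 and Tet2 CKO replicate 4 in the richest stratum and below them in the poorest. CPM is scaled to a total, so part of this exchange is given by the measure. Tet2 CKO replicate 4 was above WT replicate 3 in both strata. The median log2 fold change was 0.021 in the richest stratum and 0.011 in the poorest, a contrast of 0.010 against an SD of 0.20 over the 4 pairs of WT and Tet2 CKO libraries.

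A single 100 kb window was called, with 1 WT library far above the other 3 libraries. Of 24016 windows of 100 kb tested, edgeR called 1 (0.00416%), with 1083 (4.51%) at an unadjusted p under 0.05. DESeq2 called 0, with 545 (2.27%) at an unadjusted p under 0.05. The median SE was 0.138 in edgeR and 0.164 in DESeq2, so DESeq2 was the stricter fit at this size. The called window lay at chromosome 10, 20600001 to 20700000, and was chosen for description after its value was seen. It had 602 reads in WT replicate 2, 1840 in WT replicate 3, 842 in Tet2 CKO replicate 1 and 665 in its replicate 4. The genotypes overlapped, because WT replicate 2 was below Tet2 CKO replicate 1. In edgeR the error at this size comes from spread pooled over windows, whereas the WT libraries here stood at 49.5 and 127 CPM. The log2 fold change was -0.63 (SE 0.12, adjusted p = 0.0113, edgeR quasi-likelihood test). Leaving out WT replicate 3 turned it to 0.21 with an adjusted p of 1.0, and leaving out Tet2 CKO replicate 4 gave -0.39 with an adjusted p of 0.789 (edgeR). The call held when WT replicate 2 was left out (-1.14, edgeR adjusted p = 1.37e-10) and when Tet2 CKO replicate 1 was (-0.90, edgeR adjusted p = 0.000597). The robust edgeR fit, which was not planned for windows of 100 kb, gave it an adjusted p of 0.999 and DESeq2 one of 1.0.

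Within that window much of the excess of WT replicate 3 lay in a few bins, some of them adjacent. In 9 of its 200 bins WT replicate 3 had at least 40 reads and at least 4 times the CPM of WT replicate 2. These 9 bins held 48 reads in WT replicate 2, 1106 in WT replicate 3, 382 in Tet2 CKO replicate 1 and 155 in its replicate 4. The other 191 bins held 554, 734, 460 and 510 reads, or, per kept autosomal reads without the TMM factors, 45.4 and 50.9 CPM in WT libraries and 36.6 and 36.6 CPM in knockout libraries. The highest bin, 20679501 to 20680000, held 10 and 286 WT reads and 82 and 37 Tet2 CKO reads. Another, 20699001 to 20699500, held 4 and 170 WT reads and 100 and 14 Tet2 CKO reads. Beyond the window, the bins at 20720001 and 20774501 also had WT replicate 3 highest and Tet2 CKO replicate 1 next. They held 94 and 56 reads in WT replicate 3 and 2 and 2 in WT replicate 2. At 20774501 Tet2 CKO replicate 4 also held 2 reads. In all 11 such bins within 200 kb WT replicate 3 was highest, Tet2 CKO replicate 1 was next and WT replicate 2 was below Tet2 CKO replicate 1; the place of WT replicate 3 above WT replicate 2 follows from how the bins were picked. In 20 flanking windows of 10 kb the median was 38.5 reads in WT replicate 2, 61.0 in WT replicate 3, 55.5 in Tet2 CKO replicate 1 and 57.5 in its replicate 4.

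**Figure D5:**
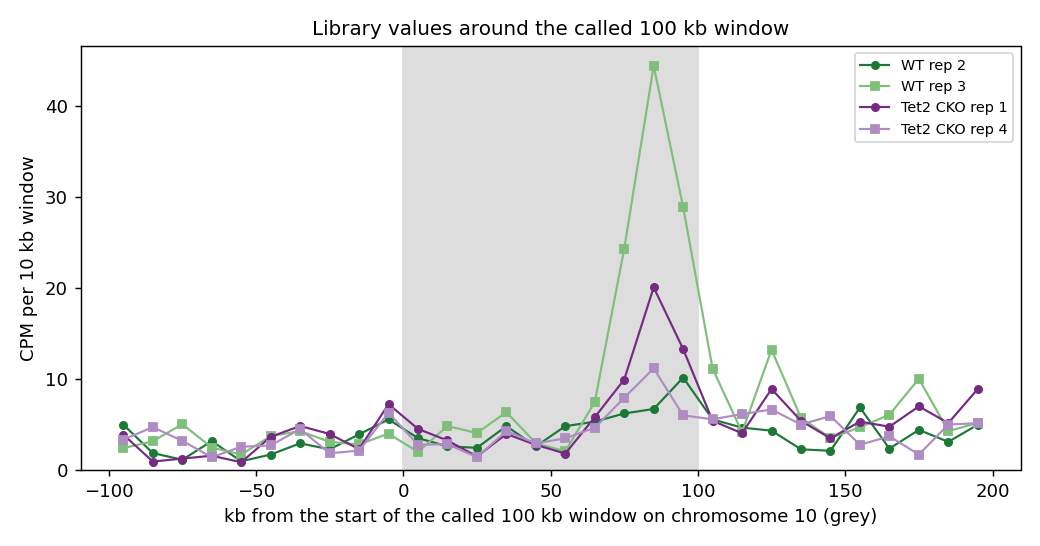
Lines give the CPM per 10 kb window of each library, without TMM factors (y axis), from 100 kb before to 200 kb after the start of the called 100 kb window on chromosome 10 (grey). WT replicate 3 peaks at 44.4 CPM and Tet2 CKO replicate 1 at 20.1 CPM in the same 10 kb window, where WT replicate 2 has 6.73 CPM and Tet2 CKO replicate 4 has 11.2 CPM.

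WT replicate 3 and Tet2 CKO replicate 1 also shared high bins elsewhere. In the deposited table the names of these 2 libraries are joined with low lines and those of WT replicate 2 and Tet2 CKO replicate 4 with hyphens, and the labels give no batch. Bins were counted where a library had at least 40 reads and was at least 4 times as high as the other library of its genotype. Across the autosomes, with 4944446 kept bins, WT replicate 3 and Tet2 CKO replicate 1 were both so in 15 bins. WT replicate 2 and Tet2 CKO replicate 4 were both so in 2 bins. Taken singly, WT replicate 3 was so in 64 bins and WT replicate 2 in 35. Tet2 CKO replicate 1 was so in 50 bins and Tet2 CKO replicate 4 in 72. The other pairing, WT replicate 3 with Tet2 CKO replicate 4, was not counted. At chromosome 9, 24346501 to 24347000, WT held 20 and 128 reads and Tet2 CKO 126 and 14. At chromosome 9, 32162501 to 32163000, WT held 12 and 126 reads and Tet2 CKO 102 and 21. On chromosome 3, the bin 19766501 to 19767000 held 10 and 88 WT reads and 104 and 16 Tet2 CKO reads. Each of these 3 bins was thus high in 1 library of each genotype.

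With the spelling of the names as a second term beside genotype, chosen after these bins were seen, edgeR called 8 of the 238720 windows for the spelling (0.00335%) and 0 for genotype. Of the 8, 6 were higher and 2 lower in the libraries spelled with low lines. Each of the 6 holds at least 1 of the 15 bins that led to this term, so these calls find the same values again. The 8 and the 0 are therefore not a like comparison of spelling with genotype. The first by p, chromosome 9, 32160001 to 32170000, held 72 and 399 WT reads and 370 and 120 Tet2 CKO reads, a log2 difference of 1.99 (SE 0.27). Among 24016 windows of 100 kb, 1 was called for the spelling (0.00416%), the same window on chromosome 10 that was called for genotype. There the spelling difference was 0.94 on the log2 scale (SE 0.15, edgeR adjusted p = 6.37e-06), and with it in the fit the genotype difference was -0.50 (edgeR adjusted p = 1.0). It also holds 2 of the 8 windows of 10 kb called for the spelling, at 20680001 and 20690001, both among the 6 with such bins. Within the low-line pair the genotype difference of the called 100 kb window on chromosome 10 was -0.91 on the log2 scale, and within the hyphen pair it was -0.057. The part that anything tied to the spelling plays in these values was not tested.

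Depth and counting bear on the precision of these values, and so does spread between libraries beyond the counting of reads. The common coefficient of variation for that spread in edgeR was 0.277 in 10 kb windows, 0.089 in 100 kb windows and 0.038 in 1 Mb windows. Of the autosomal reads, 50.3% to 55.0% stood in the 249 bins left out for a mean above 100 reads over the 7 libraries. The kept bins nearest that bound had means of 99.6 and 99.7 reads and the left-out ones 100.1 and 100.6. The kept reads numbered 12191637 and 14433675 in WT and 12551442 and 13946166 in Tet2 CKO, and the median tested 10 kb window held between 46 and 55 reads per library. The Wilson 95% intervals of these read shares extended by 0.0193 percentage points or less on each side, for counting error alone. Reads came mostly in even numbers, with odd counts in 16.5% to 18.2% of the kept bins that held any read. In WT replicate 2, 923547 bins held 2 reads and 138948 bins held 1. What this means for the number of independent fragments was not tested. Chromosome 3 was searched with the other autosomes, but the place of Tet2 on it was not looked up in this build, so the deletion was not checked.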

How the data were processed

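The authors deposited raw read counts in 500 bp bins, with no normalization. Per the labels' protocols, 5hmC-bearing DNA was enriched with an antibody and sequenced on an Illumina HiSeq instrument. The submitters' processing notes name mm9 as the build and Bowtie2, HOMER and DESeq2 as tools; their roles and versions are not given in the sources used here. Chromosomes 1 to 19 were kept, bins with a mean above 100 reads over the 7 libraries were left out, and the rest were summed to 10 kb windows by bin start. The windows tested averaged 10 reads or more over the 4 libraries, and were fitted with edgeR 4.0.16 in R 4.3.3 (TMM, quasi-likelihood fit on genotype, two-sided, Benjamini-Hochberg adjusted p under 0.05 across all windows), and with DESeq2 1.42.0 as an alternative. The SE comes from the F statistic. Library values used Python 3.11.15, pandas 2.3.3, numpy 2.4.6 and scipy 1.17.1. The fit was first run on simulated counts that varied less between libraries than these and lacked their even numbers. That run does not show how the fit behaves on these data. Windows were named by rule: the 5 smallest p and the 3 longest runs in each direction, the 5 richest windows, and the 3 largest chromosome differences in each direction. The 4 libraries, the lists and the tests were chosen with earlier results of these data known. No label states separate animals for the libraries. Each p-value therefore reflects library-to-library spread that may be technical. In edgeR that spread was largely pooled over windows, with prior degrees of freedom of 60.1 in the main fit. They were infinite at 100 kb, at 1 Mb and in the fits without 1 library. There the error of a window does not follow its own library spread. No pair of the 4 matched within sampling noise (lowest chi-square per degree of freedom 4.37 in tested windows). Tests over gene bodies were not done: the annotation used would be GRCm38.p6, another build, and regions carry no gene names or sequences.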

Additional observations from a re-analysis of the deposited data

How the results depend on the processing

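No 10 kb window was called under DESeq2 size factors, library size only, means of at least 1 or 20 reads, other bounds on high bins, robust edgeR, DESeq2, an adjusted p under 0.10, or windows of 5 kb or 1 Mb, nor with halved counts or the spelling term, both added after the data were examined. Leaving out 1 library called 0 to 17 windows: 5 when WT replicate 2 was dropped, 4 when WT replicate 3 was, 0 when Tet2 CKO replicate 1 was and 17 when Tet2 CKO replicate 4 was, where the lone library of a genotype is assumed to vary like the others. The 5 were on chromosome 10 at 20680001 and 20690001, chromosome 18 at 9250001, chromosome 5 at 98230001 and chromosome 6 at 60640001. The 4 were on chromosome 3 at 24000001 and 75570001, chromosome 14 at 109950001 and chromosome 16 at 50190001, with at most 2 reads in WT replicate 2 and at least 33 in WT replicate 3. Windows of 5 kb had 18149 at an unadjusted p under 0.05, among 432650 tested. Without 1 library, windows without overlap ran from 155175 to 161352, because fewer libraries overlap less, and runs from 8 to 19. The number of 100 kb windows called was 0 with DESeq2, 0 with robust edgeR, 0 with the spelling term, and from 0 (without WT replicate 3) to 2 without 1 library. Chromosomes without overlap numbered 1 of 19 with no bins left out, and 9 to 15 of 19 without 1 library, where fewer libraries again overlap less. The difference in the share of the richest windows was -1.32 percentage points with no bins left out, and from -0.175 to 0.573 without 1 library. Among the richest windows on chromosome 11, the log2 fold change turned to -0.18 at 3060001 and -0.0088 at 3080001 without Tet2 CKO replicate 4 and to 0.12 at 3050001 without Tet2 CKO replicate 1 (ranges without 1 library -0.18 to 0.20, -0.0088 to 0.33 and -0.31 to 0.12), and at 3040001 to -0.032 with no bins left out, -0.032 with the bound of 100 taken over the 4 libraries and -0.045 without WT replicate 3; the cause was not tested. No paired analysis was possible because the WT libraries are replicates 2 and 3 and the Tet2 CKO libraries replicates 1 and 4, which share no replicate number; the fit with the spelling term blocks on how the names are written, not on a replicate number.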

Other observations

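Some windows were empty in 1 library and filled in the other 3. At chromosome 5, 98230001 to 98240000, WT replicate 3 had 0 reads against 34 in WT replicate 2, 37 and 48 in Tet2 CKO replicates 1 and 4. At chromosome 3, 24000001 to 24010000, WT replicate 2 had 0 reads against 40, 62 and 38 in WT replicate 3 and Tet2 CKO replicates 1 and 4. At chromosome 15, 44010001 to 44020000, Tet2 CKO replicate 1 had 0 reads against 51, 32 and 57 in WT replicates 2 and 3 and Tet2 CKO replicate 4. These windows were found by leaving out the partner library of the same genotype, and none was called with all 4 libraries (edgeR, adjusted p under 0.05).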
